A study of Mus musculus with 4 samples.

Results

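The genes described here encode phosphatases, kinases and deacetylases that bind 14-3-3 proteins when phosphorylated. They are the CDC25 phosphatases Cdc25a, Cdc25b and Cdc25c, the kinase Wee1, the RAF kinases Araf and Braf, and the class IIa histone deacetylases Hdac4, Hdac5 and Hdac7. They were chosen by symbol as known 14-3-3 partners, and all 9 have a row among the 22013 genes of the table. Poly(A) RNA was sequenced from 4 mouse libraries, each made from a pool of 5 C57BL/6 blastocysts, with 2 libraries per group. Knockout embryos are labelled as made with CRISPR-Cas9 against Ywhaz in zygotes, whereas their library names and table columns carry the prefix si. Control embryos are given in the labels as wild type, and the labels disagree on whether they received Cas9 protein alone, a control guide RNA or nothing. Mothers were superovulated, and embryos of both groups spent time in culture before RNA was extracted. The blastocyst is the preimplantation embryo of trophectoderm, epiblast and primitive endoderm. Values are FPKM, which scale fragments to transcript length and to library depth.

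Ywhaz encodes 14-3-3 zeta, one of a family of dimeric adaptors that grip a phosphorylated serine or threonine in a partner. Bound 14-3-3 holds CDC25 phosphatases away from cyclin-dependent kinases, keeps RAF kinases folded in an inactive form until RAS recruits them, and retains class IIa deacetylases in the cytoplasm. WEE1 phosphorylates and restrains the cyclin-dependent kinases that CDC25 activates, and 14-3-3 binding is reported to raise its activity. These controls act on proteins. The transcript levels below measure the RNA of each partner and not its protein amount, binding, location or activity.

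The deposited data hold no sequences, so the coding sequences of GENCODE M21 on GRCm38 are used to show where a 14-3-3 site can lie. A canonical site has the order arginine, serine, any residue, phosphorylated serine or threonine, any residue, proline. Codons for that order of 6 residues were found in 3 of the 9 client genes and in 232 of 9456 expressed genes with a usable coding sequence, or 2.45%. The 3 genes are Araf, Braf and Cdc25b, and their 5 matches are shown because no other client held this order. They are descriptions of sequence, and longer coding sequences have more chances to match. The clients were chosen as known 14-3-3 partners, so their share beside that of expressed genes cannot be read apart from that choice. Expressed genes here have a mean of at least 1 FPKM, which Hdac7 among the clients does not reach. The capitals mark the 6 matching codons and the flanks are 2 codons on each side.
Araf codons 211 to 216: cgcatcCGCTCCACATCTACTCCTaacgtc
Araf codons 577 to 582: attgagCGGAGTGCCTCCGAACCCtccttg
Braf codons 345 to 350: cgagacCGGTCCTCCTCAGCTCCCaatgtt
Braf codons 763 to 768: attcacCGCAGTGCATCAGAACCTtccttg
Cdc25b codons 318 to 323: ctcttcCGCTCCCCATCCATGCCAtgcagt
Both RAF genes carry 1 match ahead of the kinase domain and 1 near the end of a coding sequence of 604 codons in Araf and 804 codons in Braf. The Araf matches lie on GRCm38 at chrX:20853385-20853414 and chrX:20860021-20860050 on the plus strand. The Braf matches lie at chr6:39651638-39651667 and chr6:39614214-39614243 on the minus strand. The Cdc25b match lies at chr2:131193269-131193298 on the plus strand, and each of the 5 matches lies within 1 coding exon.

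A looser order keeps the arginine, the serine or threonine and the proline and lets the second residue vary. It was found in 7 of the 9 client genes and in 1836 of the 9456 expressed genes, or 19.4%. Hdac7 counts among the 7, and the clients' choice as known partners limits this share as well. The matches below are both of those in Hdac4, both of those in Hdac5, 2 of the 4 in Hdac7 and 1 of the 3 in Cdc25a. They set the 3 deacetylases side by side, with the Cdc25a match added. The other matches in Hdac7 and Cdc25a are not shown, so likeness between those shown in part reflects the choice. Cdc25b held 3 matches to the looser order, of which only the 1 that also met the canonical order is shown.
Hdac4 codons 462 to 467: ctggggCGCACGCAGTCAGCACCCctgccg
Hdac4 codons 626 to 631: ctgtctCGGGCACAGTCCTCCCCAgcatct
Hdac5 codons 487 to 492: ctgagcCGCACTCAGTCCTCCCCGctgccg
Hdac5 codons 649 to 654: ctgggcCGCACCCAGTCCTCACCTgctgct
Hdac7 codons 341 to 346: cttaacCGGACCCGCTCAGAGCCCctgccc
Hdac7 codons 476 to 481: ctgtccAGAACCCAGTCTTCCCCAgcagca
Cdc25a codons 169 to 174: acacacAGGCAGAATTCAGCCCCAgctcgg
They lie on GRCm38 at chr1:91982134-91982163 and chr1:91972755-91972784 for Hdac4, chr11:102202637-102202666 and chr11:102201294-102201323 for Hdac5, and chr15:97808046-97808075 and chr15:97806539-97806568 for Hdac7, all on the minus strand. The Cdc25a match lies at chr9:109881545-109881574 on the plus strand. Cdc25c and Wee1 held no match to either order, which says only that these codons are not in the sequence searched.

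Depth was estimated from the spacing of the lowest FPKM values, at 17.3 to 18.4 in units of 1e6 fragments a library, and the libraries held 15212 to 15490 genes above 0. Trophectoderm markers summed to 236 and 361 FPKM in knockout libraries 1 and 2 and to 245 and 195 FPKM in control libraries 1 and 2, and epiblast markers to 295 and 318 FPKM in knockout and 205 and 193 FPKM in control. Much of the epiblast sum was Pou5f1, at 179 and 201 FPKM in knockout and 115 and 121 FPKM in control libraries 1 and 2. Primitive endoderm markers summed to 34.6 and 37.6 FPKM in knockout and 43.2 and 37.5 FPKM in control libraries. Of the markers of other cells, the 8 for cumulus cells summed to at most 0.542 FPKM, the 5 for sperm to at most 2.101 FPKM, the 7 for oocytes to 8.19 to 12.2 FPKM, nearly all from Zp3, and the 3 for blood to 3.21 to 11.1 FPKM, nearly all from Hba-a1. Ywhaz stood at 32.7 and 98.2 FPKM in knockout libraries 1 and 2, against 143 and 123 FPKM in control libraries 1 and 2. Knockout libraries thus averaged 49.2% of the control Ywhaz level, with library 2 the closer to control, and both stood below both control libraries (limma adjusted p = 0.305).

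No client transcript passed the test between knockout and control. Of the 9 genes, 8 reached the minimum mean of 1 FPKM and were tested with limma on log2(FPKM + 1), which adjusts over all 9544 genes tested. By this test 0.0733% of all genes were called, and 0 of 8 clients, with 0 at an unadjusted p under 0.05, where all genes gave 11.1%. Their log2 fold changes, knockout minus control throughout, ran between −0.30 and 0.41. The median was 0.10 over the clients and 0.05 over all genes tested, with 5 of 8 clients positive, against 56.0% of all genes. Each p-value sets the group difference against the spread between pools, 2 a group. limma draws that spread toward the spread of genes of similar level, so it is not the gene's own alone. The labels do not say whether the pools had separate parents. In RNA of whole embryos, a smaller number of cells of one type and less RNA per cell cannot be told apart.

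**Figure D1:**
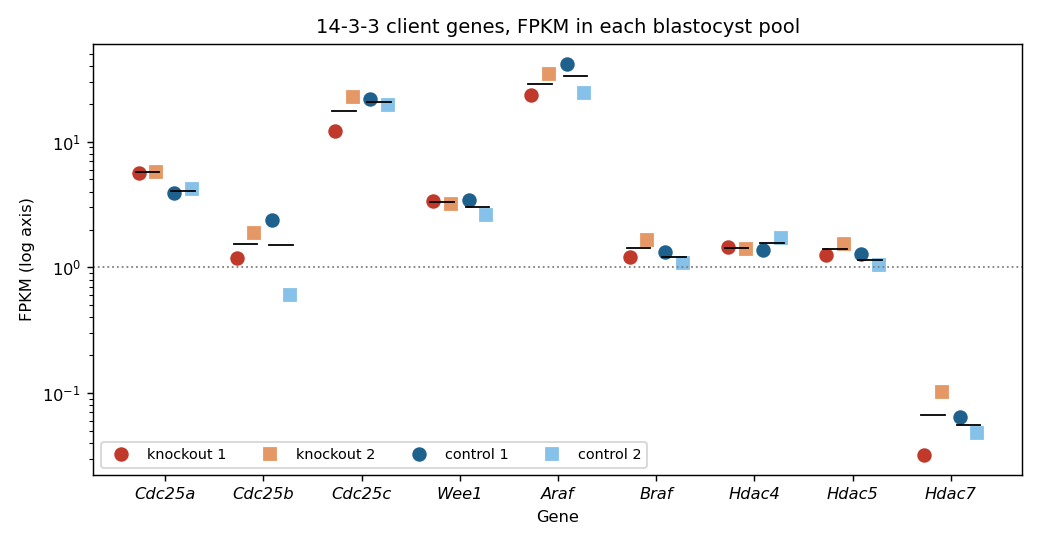
FPKM of the 9 client genes on a log axis, with 1 point per library and a black line at each group mean. Points run from knockout 1 to control 2 within a gene, and the dotted line marks 1 FPKM. Cdc25a is the tested gene with both knockout points above both control points, and Hdac7 lies far below the others.

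Levels differed widely between the clients. FPKM is scaled to transcript length, so levels were set side by side across genes. That length depends on the transcripts assumed, and GENCODE M21 lists from 1 for Wee1 to 20 for Hdac5. Araf was highest, with a mean of 31.0 FPKM over the 4 libraries, above 74.8% of tested genes. Cdc25c followed at 19.1 FPKM, Cdc25a at 4.87 FPKM and Wee1 at 3.15 FPKM, and in this order the ranges of neighbours over the 4 libraries did not overlap. Cdc25b at 1.52 FPKM, Hdac4 at 1.49 FPKM, Braf at 1.31 FPKM and Hdac5 at 1.27 FPKM overlapped from each to the next, so no order was distinguishable among them. Hdac7 was last at 0.0613 FPKM.

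Among the CDC25 phosphatases, which remove inhibitory phosphates from cyclin-dependent kinases, Cdc25a was the one with separated groups. Cdc25a, which acts from the start of S phase through mitosis, measured 5.66 and 5.72 FPKM in knockout libraries 1 and 2, against 3.92 and 4.19 FPKM in control libraries 1 and 2. Both knockout values were above both control values, and the pools within a group were close to each other. The means were 5.69 ± 0.04 FPKM in knockout and 4.05 ± 0.19 FPKM in control pools (SD, n = 2 each), which puts knockout pools at 140.4% of control pools. On the log2 scale the difference was 0.41 ± 0.24 (SE), with a 95% interval of −0.13 to 0.94, and it did not pass (limma adjusted p = 0.585). The SE is drawn toward the spread of genes of similar level, and is wider than the Cdc25a pools alone would give. Cdc25a was the 1 of 8 tested clients whose groups did not overlap, whereas 41.4% of all tested genes had groups that did not overlap, including 27.4% with knockout higher. Each library held an estimated 246 to 353 fragments of Cdc25a. The summed epiblast markers, with much of the sum from Pou5f1, were likewise higher in both knockout libraries, and their part in the Cdc25a values was not tested.

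Cdc25c, the most abundant of the family and the member best known for entry into mitosis, measured 12.1 and 22.7 FPKM in knockout libraries 1 and 2, against 21.8 and 19.6 FPKM in control libraries 1 and 2. Knockout library 1 was low and knockout library 2 was the highest of the 4, so the groups overlapped. Knockout minus control gave −0.30 ± 0.28 (SE) on the log2 scale, with a 95% interval of −0.93 to 0.33 (limma adjusted p = 0.748). Without knockout library 2 it was −0.73, and without knockout library 1 it was 0.13, so the direction rested on 1 knockout pool. Knockout library 1, with the low Cdc25c value, was also the library with the least Ywhaz, and 1 pool gives no measure of spread. For Cdc25c, knockout library 2 and control library 1 were both above the others, an order found in 32.3% of all tested genes. A link between Cdc25c and Ywhaz levels was not tested.

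Cdc25b, a starter phosphatase of mitosis, was low and spread most. It measured 1.19 and 1.89 FPKM in knockout libraries 1 and 2, against 2.40 and 0.605 FPKM in control libraries 1 and 2. The control pools were the highest and the lowest of the 4, and the knockout pools lay between them. The log2 fold change was 0.11 ± 0.34 (SE; limma adjusted p = 0.942). It was −0.43 without control library 2 and 0.65 without control library 1. Control library 2 held an estimated 32 fragments of Cdc25b and control library 1 held 127.

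Summed over the family, CDC25 transcripts stood at 18.9 and 30.3 FPKM in knockout libraries 1 and 2 and at 28.1 and 24.4 FPKM in control libraries 1 and 2. Cdc25a made up 29.9% and 18.9% of that sum in knockout and 13.9% and 17.2% in control libraries. Cdc25c made up 63.9% and 74.9% in knockout and 77.5% and 80.4% in control libraries. The groups did not overlap in either share, and the exact two-sided permutation p of 0.3333 is the smallest that 2 against 2 libraries allow, so neither share could pass. Knockout library 1 carried much of both differences. The Cdc25a difference was 8.82 percentage points, 3.33 without knockout library 1 and 14.3 without knockout library 2, and the Cdc25c difference was −9.58, −4.07 without knockout library 1 and −15.1 without knockout library 2.

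**Figure D2:**
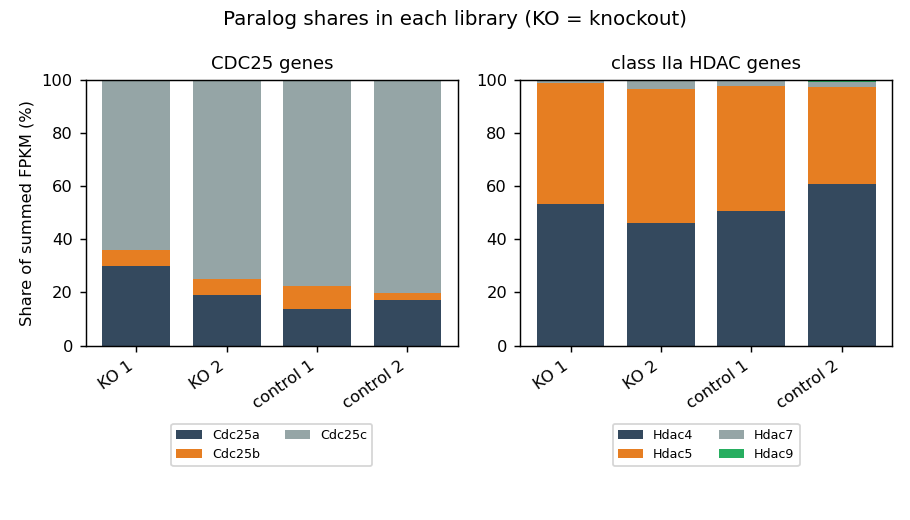
Share of the summed FPKM of each family taken by its members, with 1 bar per library and knockout bars to the left of control bars. Cdc25c and the pair Hdac4 and Hdac5 take most of their families, and the Cdc25a segment is tallest in knockout library 1 at 29.9%.

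Wee1, which places the inhibitory phosphate that CDC25 removes, did not separate the groups. It measured 3.37 and 3.20 FPKM in knockout libraries 1 and 2, against 3.42 and 2.61 FPKM in control libraries 1 and 2. Both knockout values lay inside the control range. Its log2 fold change was 0.10 ± 0.25 (SE), with a 95% interval of −0.45 to 0.66 (limma adjusted p = 0.913). Pkmyt1, the membrane-bound relative of WEE1, measured 8.12 and 9.67 FPKM in knockout and 18.3 and 9.09 FPKM in control libraries. Control library 1 stood apart for Pkmyt1 (limma adjusted p = 0.601). Wee2, the oocyte relative, was at 0.020 to 0.041 FPKM, an estimated 1 to 2 fragments a library.

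The ratio of summed CDC25 to summed Wee1 and Pkmyt1 transcripts within a library does not depend on scaling between libraries. It was 1.65 and 2.35 in knockout libraries 1 and 2, against 1.297 and 2.09 in control libraries 1 and 2. The pools of each group differed by more than the groups did, with a mean difference of 0.26 on the log2 scale (exact two-sided permutation p = 0.667). Without control library 1 the difference was −0.08.

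RAF kinases carry the signal from RAS to MEK and ERK. Araf, far more abundant than Braf, measured 23.5 and 34.3 FPKM in knockout libraries 1 and 2, against 41.8 and 24.4 FPKM in control libraries 1 and 2. Each group had a high and a low pool, and the ranges overlapped. The log2 fold change was −0.17 ± 0.28 (SE), with a 95% interval of −0.80 to 0.46 (limma adjusted p = 0.867). Leaving out a single library gave 0.21 (control library 1), 0.10 (knockout library 1), −0.54 (control library 2) and −0.43 (knockout library 2), so the sign depended on which pools were kept.

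Braf, the RAF kinase with the strongest basal activity, measured 1.20 and 1.65 FPKM in knockout libraries 1 and 2, against 1.33 and 1.07 FPKM in control libraries 1 and 2. The groups overlapped, since control library 1 exceeded knockout library 1. The difference on the log2 scale was 0.14 ± 0.24 (SE), with a 95% interval of −0.40 to 0.67 (limma adjusted p = 0.871). It was 0.0028 without knockout library 2 and 0.05 without control library 2, so its size rested on single pools.

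The ratio of Braf to Araf within a library was separated between the groups. Its log2 value was −4.29 and −4.38 in knockout libraries 1 and 2, against −4.97 and −4.51 in control libraries 1 and 2. The mean difference was 0.41, and the exact two-sided permutation p of 0.3333 is again the smallest possible, so the ratio could not pass. The difference was 0.18 without control library 1 and 0.64 without control library 2. Braf stood at 0.0513 and 0.0481 of the Araf level in knockout and at 0.0319 and 0.0439 of it in control libraries.

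The class IIa deacetylases, corepressors that shuttle between nucleus and cytoplasm, were low. Hdac4 measured 1.46 and 1.39 FPKM in knockout libraries 1 and 2, against 1.38 and 1.72 FPKM in control libraries 1 and 2. Both knockout values lay within the control range. Its log2 fold change was −0.07 ± 0.24 (SE), with a 95% interval of −0.59 to 0.45 (limma adjusted p = 0.946).

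Hdac5, a paralog of Hdac4, measured 1.25 and 1.53 FPKM in knockout libraries 1 and 2, against 1.27 and 1.04 FPKM in control libraries 1 and 2. Knockout library 1 fell between the control pools. The log2 fold change was 0.15 ± 0.23 (SE), with a 95% interval of −0.37 to 0.67 (limma adjusted p = 0.854), and it was 0.06 without knockout library 2 and 0.07 without control library 2. An estimated 68 to 95 fragments a library stood behind these values.

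Hdac7 was too low to be tested. It measured 0.032 and 0.101 FPKM in knockout libraries 1 and 2, against 0.064 and 0.048 FPKM in control libraries 1 and 2. These values stand for an estimated 2.3 and 7.0 fragments in knockout and 4.7 and 3.6 fragments in control libraries, and both knockout values lay outside the control range on opposite sides. Hdac9, the remaining class IIa gene, was listed at 0 in 3 libraries and at 0.029 FPKM in control library 2. The class IIa sum was 2.74 and 3.02 FPKM in knockout and 2.71 and 2.83 FPKM in control libraries, and the groups overlapped. Hdac4 and Hdac5 together supplied nearly all of it.

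**Figure D3:**
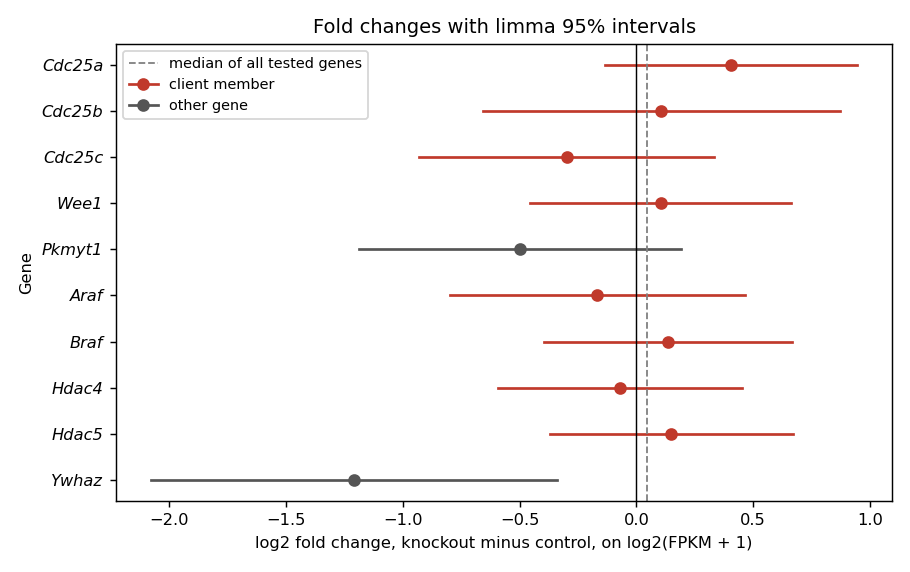
Fold change of the 8 tested clients (red) and of Pkmyt1 and Ywhaz (grey) as points with limma 95% intervals, on the log2(FPKM + 1) scale. The interval of each client spans 0, from −0.93 at the lowest for Cdc25c to 0.94 at the highest for Cdc25a.

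For most clients the pools of one group differed by more than the groups. The difference between pools exceeded the difference between group means, on the log2(FPKM + 1) scale, in at least 1 group for 7 of 8 tested clients and for 70.6% of all tested genes. Cdc25a was the exception, with pools that differed by −0.01 in knockout and −0.08 in control, library 1 minus library 2. Araf differed by −0.53 between the knockout pools and by 0.75 between the control pools, and Cdc25c by −0.85 and 0.15. For Araf, Braf, Cdc25b, Cdc25c and Hdac5, knockout library 2 and control library 1 were both above knockout library 1 and control library 2. The same order was found in 32.3% of all tested genes. The opposite order held for Hdac4 alone among the clients and for 8.74% of all tested genes.

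**Figure D4:**
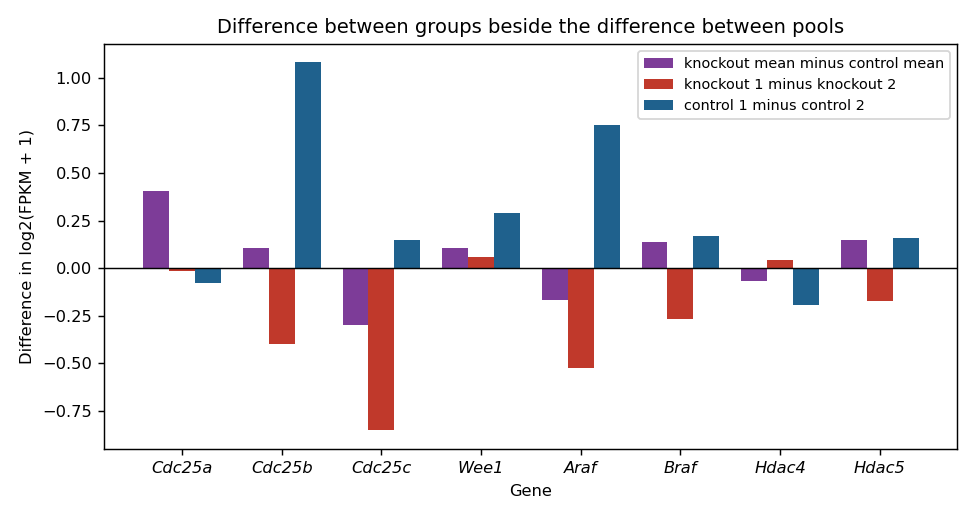
Bars give the difference between group means (purple), between the 2 knockout pools (red) and between the 2 control pools (blue) in log2(FPKM + 1) for the 8 tested clients. Only Cdc25a has a purple bar taller than both others, at 0.41.

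Genes around the clients were read in 9 lists of 175 distinct genes, of which 137 were tested. None passed over all genes tested. At an unadjusted p under 0.05 there were 14 higher and 2 lower in knockout pools, or 11.7% of the list genes tested. Over all genes the share was 11.1%, with 7.75% higher and 3.33% lower. The list median log2 fold change ran from 0.01 for other 14-3-3 clients to 0.30 for other deacetylases, against 0.05 for all genes tested. These medians moved with the settings tried: over the alternatives that of other 14-3-3 clients ran from −0.09 to 0.20 and changed sign in 4 of them, that of class IIa partners and targets from −0.06 to 0.25, and that of the 14-3-3 genes from −0.06 to 0.30. The medians of the other 6 lists stayed positive, from as low as 0.0087 to as high as 0.36, while the median of all genes tested ran from −0.03 to 0.13.

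In the RAF, MEK and ERK list 0 of 16 tested genes passed, with 11 positive and 5 negative and a median log2 fold change of 0.10. Map2k2, which encodes the RAF substrate MEK2, measured 23.6 and 23.2 FPKM in knockout and 15.0 and 11.8 FPKM in control libraries (limma adjusted p = 0.274). Hras, a RAS switch that recruits RAF, measured 34.0 and 28.9 FPKM in knockout and 19.7 and 22.0 FPKM in control libraries (limma adjusted p = 0.375). In Map2k2 and Hras both knockout pools were above both control pools. Of the 16 tested genes, 6 were separated in this way and 0 with knockout lower. Over all tested genes 27.4% were separated with knockout higher, and 41.4% in either direction. Map2k1, which encodes MEK1, measured 8.86 and 14.7 FPKM in knockout and 8.67 and 8.98 FPKM in control libraries. Mapk3, which encodes the ERK1 kinase, measured 8.39 and 7.39 FPKM in knockout and 10.1 and 7.14 FPKM in control libraries, with overlap.

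In the list of genes that act on CDK1 around CDC25 and WEE1, 0 of 19 tested genes passed, with 13 positive and 6 negative and a median of 0.14. Cdk1 itself, the kinase on which both act, measured 425 and 403 FPKM in knockout and 384 and 462 FPKM in control libraries, and the groups overlapped. Its partner Ccnb1, cyclin B1, measured 569 and 627 FPKM in knockout and 502 and 472 FPKM in control libraries (limma adjusted p = 0.558). Btrc, a ubiquitin ligase subunit that marks CDC25A and WEE1 for destruction, measured 72.5 and 97.6 FPKM in knockout and 48.9 and 49.1 FPKM in control libraries (limma adjusted p = 0.259). Bora, which helps to activate the mitotic kinase PLK1, measured 6.80 and 7.21 FPKM in knockout and 2.75 and 4.05 FPKM in control libraries (limma adjusted p = 0.278). Ccne2, a cyclin of S phase entry, measured 9.34 and 10.2 FPKM in knockout and 4.72 and 6.98 FPKM in control libraries (limma adjusted p = 0.383). Knockout pools were above control pools in Btrc, Bora, Ccne2 and Ccnb1, and none of these passed. Btrc, Bora and Ccne2 were named for the smallest p-values of the list, which favours separated genes. Of its 19 tested genes, 8 were separated with knockout higher and 1 with knockout lower. The shares over all tested genes were 27.4% higher and 41.4% in either direction.

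Checkpoint kinases place the phosphates that 14-3-3 binds on CDC25, and 0 of the 12 genes in their list passed, with 10 positive and 2 negative and a median of 0.18. Chek1, the main kinase of this step, measured 16.6 and 23.3 FPKM in knockout and 19.1 and 15.9 FPKM in control libraries, with overlap. Chek2, its relative, measured 47.1 and 50.3 FPKM in knockout and 30.3 and 32.1 FPKM in control libraries (limma adjusted p = 0.297). Rad9a, a subunit of the clamp that activates ATR, measured 16.7 and 23.1 FPKM in knockout and 31.3 and 27.4 FPKM in control libraries (limma adjusted p = 0.419). Clspn, the adaptor between ATR and CHK1, measured 1.40 and 2.75 FPKM in knockout and 0.836 and 1.54 FPKM in control libraries, with overlap. Chek2 and Rad9a were thus separated in opposite directions. Of the 12 genes, 5 were separated with knockout higher and 2 with knockout lower. The shares over all tested genes were 27.4% higher and 41.4% in either direction.

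Among other kinases that phosphorylate 14-3-3 sites, 0 of 19 tested genes passed, with 12 positive and 7 negative and a median of 0.17. Prkaa1, the catalytic subunit of AMP-activated kinase, measured 13.8 and 14.4 FPKM in knockout and 9.07 and 8.30 FPKM in control libraries (limma adjusted p = 0.347). Cab39, a scaffold of the kinase LKB1, measured 19.8 and 31.8 FPKM in knockout and 16.9 and 16.0 FPKM in control libraries (limma adjusted p = 0.438). Rps6ka1, an ERK-activated kinase, measured 4.57 and 7.76 FPKM in knockout and 4.53 and 3.06 FPKM in control libraries, where knockout library 1 and control library 1 nearly met. Sik1, a kinase of class IIa deacetylases, was under the minimum at 0.368 and 0.275 FPKM in knockout and 0.209 and 0.195 FPKM in control libraries. Of the phosphatases that reverse such sites, 0 of 16 passed, with 13 positive and 3 negative and a median of 0.18. Its smallest p-values belonged to the PP2A subunits Ppp2r2a and Ppp2r5c and the calcineurin subunit Ppp3r1, with log2 fold changes of 0.42, −0.36 and 0.41.

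Among partners and targets of class IIa deacetylases, 0 of 15 tested genes passed, with 12 positive and 3 negative and a median of 0.18. Hdac3, the enzyme that class IIa complexes recruit, measured 22.9 and 28.7 FPKM in knockout and 26.7 and 19.1 FPKM in control libraries, and its corepressor Ncor1 measured 8.88 and 10.5 FPKM in knockout and 8.75 and 8.56 FPKM in control libraries. Mef2d, a transcription factor that these deacetylases repress, measured 3.60 and 4.78 FPKM in knockout and 4.95 and 3.44 FPKM in control libraries, with overlap. Its relative Mef2a measured 1.20 and 2.18 FPKM in knockout and 0.787 and 0.510 FPKM in control libraries (limma adjusted p = 0.378). Gps2, a subunit of the corepressor complex, measured 21.8 and 21.3 FPKM in knockout and 10.8 and 14.3 FPKM in control libraries (limma adjusted p = 0.292). Klf2, a target of MEF2 factors, is also among the epiblast markers summed above. It measured 24.9 and 30.1 FPKM in knockout and 25.7 and 9.01 FPKM in control libraries (limma adjusted p = 0.475). Without control library 1 its log2 fold change was 1.504, which left the low control library 2 as the only control. Among the other deacetylases 0 of 9 passed, with 6 positive and 3 negative. Hdac1, a class I enzyme, measured 155 and 151 FPKM in knockout and 99.98 and 109 FPKM in control libraries (limma adjusted p = 0.305). Hdac2 had a log2 fold change of 0.30 and Sirt6 of 0.47.

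Transcripts of other 14-3-3 clients went in both directions, with 0 of 25 tested genes past the threshold, 14 positive and 11 negative. Foxo3, a transcription factor that 14-3-3 keeps out of the nucleus, measured 14.5 and 13.0 FPKM in knockout and 8.08 and 7.41 FPKM in control libraries (limma adjusted p = 0.292). Rnd3, a small GTPase that 14-3-3 draws off membranes, had a log2 fold change of 0.53 and Tfe3, a transcription factor of lysosomal genes, of −0.44. In the 14-3-3 genes themselves 0 of 7 passed, and the smallest p-values belonged to Sfn, Ywhaz and Ywhah, with log2 fold changes of 0.80, −1.21 and 0.40. Ywhaz passed without knockout library 2, at −1.99 (limma adjusted p = 6.94e-09). Sfn, 14-3-3 sigma, passed without knockout library 1 (limma adjusted p = 0.0490) and without knockout library 2 (limma adjusted p = 0.0148), and Btrc passed without knockout library 1 (limma adjusted p = 0.0156). Such fits leave 1 library in a group, which is taken to vary like the other group.

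**Figure D5:**
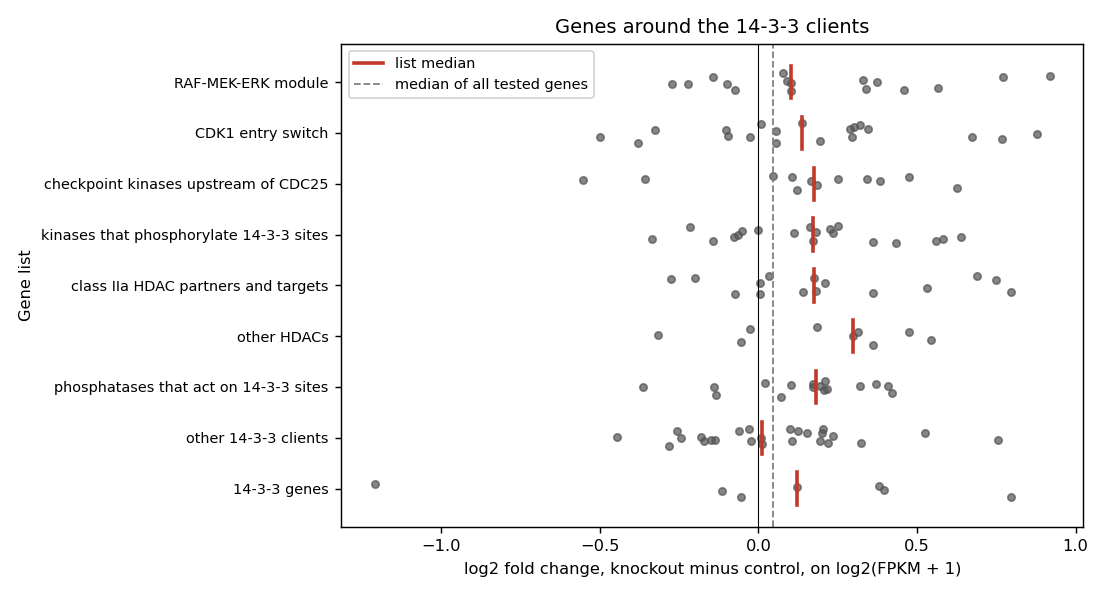
Each point is the log2 fold change, knockout minus control on the log2(FPKM + 1) scale, of 1 tested gene in the list named on the vertical axis. Red bars mark list medians, from 0.01 to 0.30, and the dashed line the median of all tested genes, 0.05; the point at −1.21 is Ywhaz.

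In the authors' deposited table none of the 9 clients was called. In the authors' deposited table the FDR was 1 for every one of them, where 53 of 22013 rows, or 0.241%, had an FDR under 0.05. The authors' deposited table gave log2 fold changes of 0.49 for Cdc25a (p = 0.131 before adjustment) and −0.25 for Cdc25c (p = 0.306 before adjustment), both computed from the same group means as above.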

How the data were processed

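Gene-level FPKM for each library, the authors' mean FPKM per group, log2 fold change, p-value and FDR were deposited by the authors in a single table, per the file headers. The table holds no counts. Tools named in the submitters' processing notes, with no role given, are DESeq2, RSEM, StringTie 1.3.1, HISAT2 2.1.0, Bowtie2 2.2.8 and fastp 0.18.0, with the build GRCm39. Which of them made the deposited p-value is not given in these sources.

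Tested genes had a mean of 1 FPKM or more, and the test was made on log2(FPKM + 1) with limma 3.58.1 in R 4.3.3, with an intensity trend, Benjamini-Hochberg adjustment over 9544 genes and a threshold of 0.05. The fit had 2 residual degrees of freedom before moderation and was tested on simulated data. This scale understates fold changes of low genes. Shares and ratios were compared by exact permutation. The members, lists and named genes were chosen with earlier results of these data known. Named genes were the 9 clients, fixed paralogs and partners, and the 3 smallest p-values of each list. Some genes this rule takes, and the shares that need them, are not reported here.

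Depth was estimated in single-transcript genes over 1500 nt, with an assumed fragment of 200 nt. Of low values 54.2% to 59.5% lay within 0.1 of a whole fragment, so fragment numbers are approximate and rest on 1 annotated transcript per gene. The count of sites in proteins was made on codons, because protein sequences were not used here. Annotation was GENCODE M21 on GRCm38, not the authors' build, matched by gene identifier. Whether counting used strand is not stated in these sources. Alternatives were other filters, pseudocount and scalings, leaving out each library, and the replicate number as a block.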

Additional observations from a re-analysis of the deposited data

How the results depend on the processing

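None of the clients tested passed the limma threshold under any of the alternatives (smallest adjusted p 0.164, for Cdc25c without knockout library 2, the 1 client and setting with an unadjusted p under 0.05), and Cdc25a, Braf and Hdac5 kept a positive fold change under those that tested them, at 0.0028 to 0.27 for Braf, 0.06 to 0.24 for Hdac5 and 0.37 to 0.44 for Cdc25a when 1 library was left out. Leaving out 1 library reversed Cdc25b (−0.43 to 0.65), Cdc25c (−0.73 to 0.13), Wee1 (−0.043 to 0.25), Araf (−0.54 to 0.21) and Hdac4 (−0.17 to 0.027), each as a range of log2 fold change. The same exclusions gave knockout minus control differences of −7.31 to 4.03 FPKM for summed CDC25 and −0.038 to 0.25 FPKM for summed class IIa deacetylases. They gave 3.33 to 14.3 percentage points for the Cdc25a share, −15.1 to −4.07 for the Cdc25c share, 0.18 to 0.64 for the log2 ratio of Braf to Araf, −2.27 to 3.77 percentage points for the Cdc25b share, −0.86 to 1.32 for the Hdac7 share, and −0.083 to 0.60 for the log2 ratio of CDC25 to Wee1 and Pkmyt1. The cause was not tested. Of all genes tested, 7 were called. With no filter on low values and with quantile normalization 0 were called in limma, with 1400 and 1249 at an unadjusted p under 0.05, with TPM scaling 11, and 17 to 249 when 1 library was left out. Of the list genes 0 to 2 were called when 1 library was left out. Same-numbered libraries did not deviate together (Pearson correlation −0.24 over 9544 genes). This correlation cannot settle whether equal numbers pair the samples, and the sample titles give only the number. With the replicate number as a block 38 genes and 1 list gene were called and no client. A block with crossed numbers, added after the data were seen, called 475 genes and 9 list genes, and no client. At a minimum of 5 FPKM, Araf and Cdc25c were the 2 clients tested. Hdac7 was under the main minimum of 1 FPKM and the 4 clients between 1 and 2 FPKM were near it, where depth and the added 1 limit what a fold change can show.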
